A study of Mus musculus with 6 samples.

Results

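The genes described here are 10 nuclear genes whose proteins defend mitochondria against superoxide and peroxides and keep protein thiols reduced. They were chosen by symbol, as Sod2, Prdx3, Prdx5, Txn2, Glrx2, Glrx5, Nnt, Msra, Msrb2 and Idh2, with no threshold on their values. All 10 were among the 16140 genes of the deposited table, and all 10 were among the 12173 genes with enough counts to be tested. They were measured by RNA sequencing of poly(A)-selected RNA from whole mouse liver. The knockout livers (n = 3) had the genotype Selofl/fl Alb-Cre, in which Cre recombinase driven by the albumin promoter, active in hepatocytes, deletes the floxed Selenoo gene. The control livers (n = 3) had the genotype Selofl/fl, so they carried the floxed alleles without Cre, and an effect of Cre cannot be told apart from the loss of Selenoo. Both groups were kept on a normal diet. Neither age, sex nor mouse strain is given in the labels used here. Whether the libraries are from separate mice is not stated in words, and the p-values given here therefore describe the scatter among these samples, part of which may be technical.

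The respiratory chain leaks electrons to oxygen, and the superoxide that forms in the mitochondrial matrix is turned into hydrogen peroxide by the manganese enzyme SOD2. Peroxiredoxins reduce that peroxide with electrons from thioredoxin 2, glutaredoxins act on protein-glutathione bonds with glutathione, and methionine sulphoxide reductases repair oxidised methionine. In the matrix, the peroxiredoxins, glutaredoxins and methionine sulphoxide reductases draw on NADPH, which NNT and IDH2 supply. Selenoo encodes SelO, a mitochondrial selenoprotein that attaches AMP to other proteins, and redox proteins are known among its substrates in bacteria and yeast. The study's title asks about the effect of SelO loss in liver on its transcripts. For these genes the question is whether the transcripts of the redox systems around SelO differed between knockout and control livers.

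Selenoo itself was measured at 117, 163 and 135 counts in the knockout libraries, against 1413, 1630 and 1852 counts in the control libraries. The labels therefore matched the level of the targeted gene in all 6 libraries. Library totals ran from 15550289 to 18680195 estimated counts. Levels are given as CPM, counts scaled to the size of the library. The detection floor of 3 counts corresponded to 0.155 to 0.201 CPM, and every member lay above it in every library. The control libraries were less alike than the knockout libraries. The rank correlation of a library's deviations in abundance with transcript length was 0.28, 0.082 and 0.086 in the knockout libraries, against -0.31, -0.23 and 0.28 in the control libraries, across genes that are not independent replicates. In whole liver, fewer cells of a type and less RNA per cell cannot be told apart. The 10 hepatocyte markers summed to 172364 to 200165 CPM in knockout livers and 158951 to 198614 CPM in control livers. The 10 lymphocyte markers, with 7 of them tested, summed to 9.94 to 14.6 CPM in knockout livers and 18.0 to 24.9 CPM in control livers. With all 6 libraries, 0 lymphocyte markers passed an adjusted p of 0.05 in edgeR, and 4 had an unadjusted p under 0.05. DESeq2 called 1, Ptprc (adjusted p = 0.0134), which is a gene of leukocytes in general and not of lymphocytes alone. Its 5.79 to 6.74 CPM in knockout and 9.55 to 11.9 CPM in control livers are part of these sums. Over all tested genes edgeR called 1.49%, and 18.5% had an unadjusted p under 0.05. DESeq2 called 5.26% of the genes it tested. In edgeR 1 lymphocyte marker was also called with upper-quartile factors, without the filter on low counts, with the length trend removed and without control replicate 1. The 10 Kupffer cell markers summed to 343 to 391 CPM in knockout livers and 335 to 491 CPM in control livers. All 10 had negative fold changes; with all 6 libraries 0 passed in edgeR or DESeq2 and 2 had an unadjusted p under 0.05, and without control replicate 1 edgeR called 2. The sums for the 7 endothelial markers were 256 to 316 CPM in knockout livers and 297 to 329 CPM in control livers, and 1 of them, Lyve1, fell (adjusted p = 0.0196 in edgeR). Lyve1 was not called when knockout replicate 1 (0.0909), knockout replicate 3 (0.0971) or control replicate 2 (0.0648) was left out. The 8 stellate cell markers (241 to 306 CPM in knockout and 250.98 to 317 CPM in control livers) and the 5 cholangiocyte markers (30.1 to 41.6 CPM in knockout and 19.1 to 53.3 CPM in control livers) had overlapping sums and 0 calls in edgeR and DESeq2, with 1 and 0 genes at an unadjusted p under 0.05. Of the hepatocyte markers 1 rose, Tat, the tyrosine aminotransferase (adjusted p = 0.0241 in edgeR). Tat was not called without knockout replicate 1 (0.0794), 2 (0.0739) or 3 (0.0971), nor by limma on log2(FPKM + 1) (0.0509). No marker of any list was at 0 in all libraries. The part of these cell types in the values of the 10 genes was not tested.

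Promoter sequences were taken from RefSeq on build GRCm38.p6, as windows of 300 bases that run from 250 bases before a gene's start to 50 bases after it. Windows were found for 8 members, with 11 windows in all because Glrx2 has several starts (Nnt and Msra are not among the 8). The member windows were rich in G and C: 9 of the 11 lay above the median GC content of all 32851 windows, which was 52.7%, and they ranged from 44.3% to 70.7%. Motifs of transcription factors on the list of regulators were searched on both strands. They were the antioxidant response element of NRF2 (TGACNNNGC), the ERR site (AAGGTCA), the FOXO site (GTAAACA), the NRF1 site and the GABPA site (CCGGAAGT). The NRF2 and ERR letters were found in Msrb2, the FOXO letters in Glrx2, the GABPA letters in Prdx5, and the NRF1 site in no member. Of all windows, 12.4% hold the NRF2 letters, 4.72% the ERR letters, 3.65% the FOXO letters, 6.23% the NRF1 letters and 3.89% the GABPA letters. The windows printed here hold a match, with its bases in capitals. The Msrb2 window (chr2:19371386-19371685, plus strand) has the ERR letters upstream of the start and the NRF2 letters, read on the other strand, downstream of it. The Prdx5 window (chr19:6910057-6910356, minus strand, printed in the direction of Prdx5) has the GABPA letters just downstream of the start. The Glrx2 window (chr1:143739099-143739398, plus strand) has the FOXO letters upstream of the start.
Msrb2: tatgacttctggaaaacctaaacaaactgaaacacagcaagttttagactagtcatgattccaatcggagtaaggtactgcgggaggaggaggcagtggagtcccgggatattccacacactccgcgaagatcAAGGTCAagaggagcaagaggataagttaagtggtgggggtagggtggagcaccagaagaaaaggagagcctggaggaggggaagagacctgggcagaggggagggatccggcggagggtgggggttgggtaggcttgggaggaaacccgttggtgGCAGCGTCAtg
Prdx5: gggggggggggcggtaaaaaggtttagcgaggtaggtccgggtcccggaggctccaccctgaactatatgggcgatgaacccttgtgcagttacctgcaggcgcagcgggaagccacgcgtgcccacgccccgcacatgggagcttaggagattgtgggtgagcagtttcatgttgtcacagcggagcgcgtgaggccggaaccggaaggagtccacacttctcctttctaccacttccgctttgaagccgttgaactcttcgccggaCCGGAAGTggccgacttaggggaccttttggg
Glrx2: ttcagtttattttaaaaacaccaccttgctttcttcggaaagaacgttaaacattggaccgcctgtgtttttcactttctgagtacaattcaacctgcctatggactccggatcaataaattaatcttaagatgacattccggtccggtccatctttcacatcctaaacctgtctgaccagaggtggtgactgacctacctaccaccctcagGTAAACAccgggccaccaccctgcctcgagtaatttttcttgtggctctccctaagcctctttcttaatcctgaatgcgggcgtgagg
A match of letters is a description of the window and does not show that a factor binds there.

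The 10 genes spanned a wide range of levels in liver. On the TPM scale, which allows for transcript length, Prdx5 was the highest at 206 ± 23.7 TPM (SD over all 6 libraries), followed by Txn2 at 197 ± 12.0 TPM and Msra at 188 ± 13.6 TPM. The ranges of these neighbours overlapped, so their order does not hold beyond the spread between libraries. Below a gap came Glrx5 at 101 ± 17.6 TPM, Idh2 at 91.8 ± 12.0 TPM, Prdx3 at 73.5 ± 7.0 TPM and Sod2 at 69.7 ± 5.44 TPM. Each of these also overlapped with its neighbour. Nnt (24.6 ± 10.1 TPM) and Glrx2 (16.9 ± 2.94 TPM) lay lower and overlapped with each other, and Msrb2 was the lowest at 9.68 ± 0.803 TPM, without overlap with Glrx2. Together the 10 genes made up 965, 1041 and 985 TPM in knockout livers, against 907, 979 and 988 TPM in control livers, so the summed levels of the groups overlapped.

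**Figure D1:**
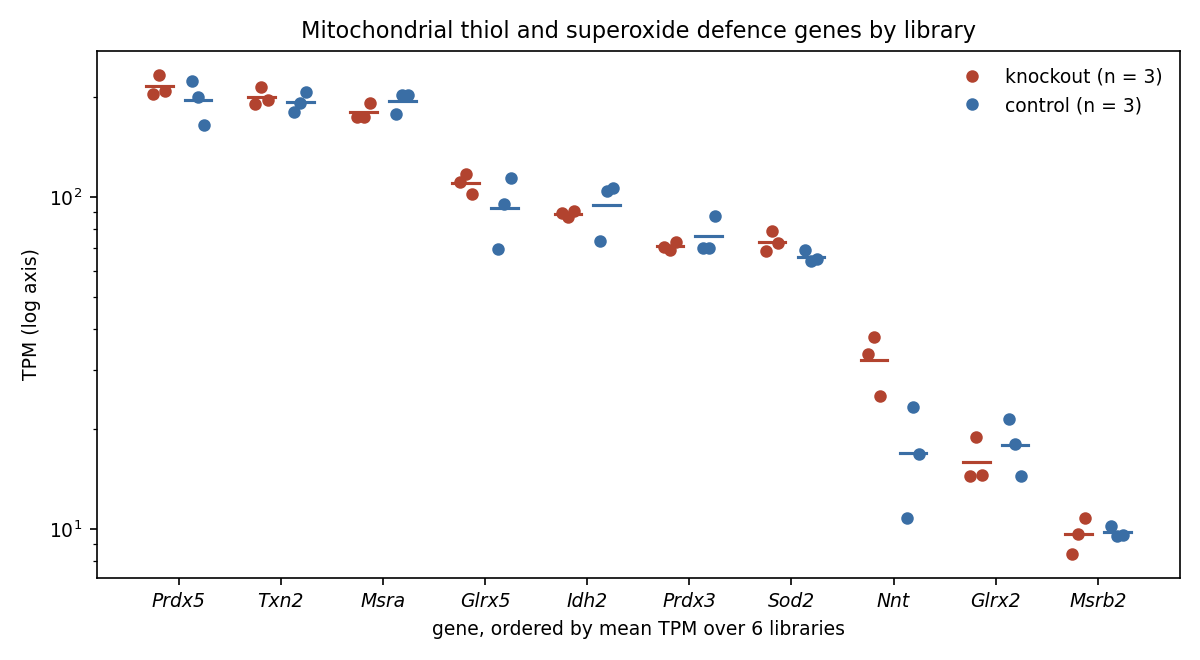
TPM of the 10 genes in each library on a log axis, with knockout libraries (red) left of control libraries (blue) and a bar at each group's mean. Nnt, at 25.1 to 37.8 TPM in knockout livers and 10.8 to 23.3 TPM in control livers, is the 1 gene of the 10 whose TPM do not overlap between groups. The share of all genes for which this holds was not computed for TPM, and for CPM it was 25.2%.

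With the threshold set at an adjusted p of 0.05 over all genes, the quasi-likelihood test of edgeR called 0 of the 10 genes, where it called 1.49% of all 12173 tested genes (0.772% higher and 0.715% lower). Without adjustment 1 gene, Nnt, had a p under 0.05, against 18.5% of all tested genes. DESeq2 called 1 of the 10, again Nnt, against 5.26% of the genes it tested, and the authors' deposited table lists 1 of the 10, also Nnt, with a q value under 0.05, against 3.47% of its genes. The fold changes were positive in 5 genes and negative in 5. Their median log2 fold change was -0.011, beside -0.018 over all tested genes. Apart from Nnt, the log2 fold changes of the other 9 genes lay between -0.12 and 0.24, and their adjusted p-values in edgeR lay between 0.371 and 0.93. The 95% intervals of these 9 together ran from 0.714-fold to 1.47-fold, which is the size of change that the 6 libraries still allow for them.

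**Figure D2:**
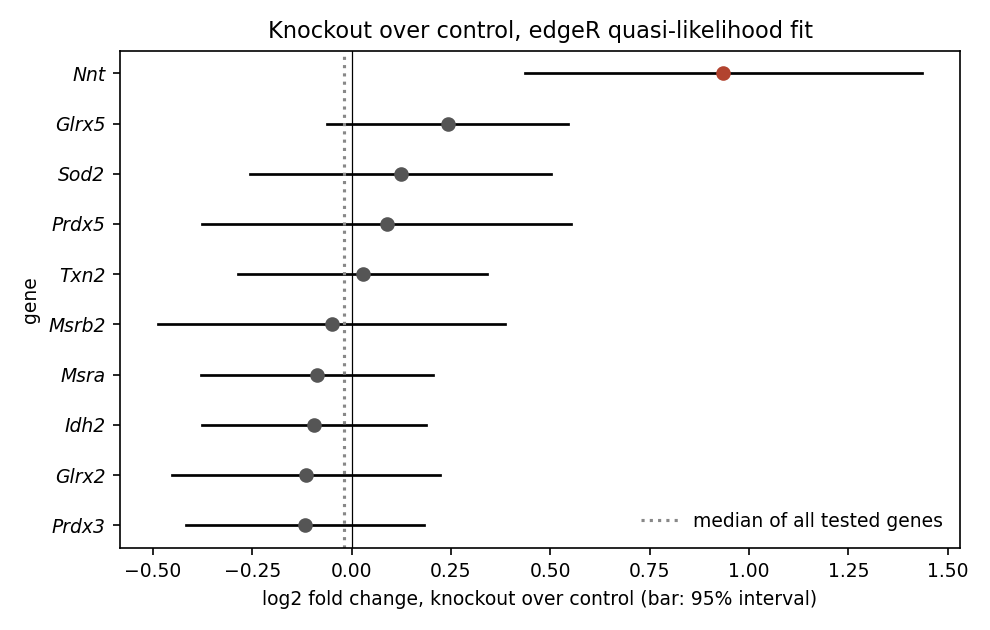
Log2 fold change of each gene, knockout over control, with its 95% interval from the edgeR fit. The interval of Nnt (0.44 to 1.43) lies above 0, and those of the other 9 genes include 0.

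The first step of the defence is the removal of superoxide. Sod2, the manganese superoxide dismutase of the matrix (NCBI Gene 20656, chr17:13007839-13020124 on GRCm38), had 186, 233 and 215 CPM in knockout livers, against 237, 176 and 171 CPM in control livers. Control replicate 1 was the highest of all 6 libraries, and the groups overlapped. The log2 fold change was 0.12 ± 0.17 (SE, n = 3 each), with a 95% interval from -0.25 to 0.50 (adjusted p = 0.72 in edgeR). With single libraries left out the estimate ran from 0.040 to 0.29, the highest without control replicate 1. Its counterparts outside the matrix, the copper-zinc enzyme Sod1 and the secreted Sod3, stood on the list of 12 paralogs. Of these 12, 0 passed in edgeR, against 1.49% of all tested genes. In DESeq2 0 passed, against 5.26% of the genes it tested. An unadjusted p under 0.05 was found for 0, against 18.5% of all tested genes. Sod3 had the smallest p on that list, with 30.4 ± 1.47 CPM in knockout and 37.1 ± 4.84 CPM in control livers (SD, n = 3 each) and an adjusted p of 0.29 in edgeR.

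Hydrogen peroxide in the matrix is reduced by Prdx3, the peroxiredoxin confined to mitochondria, and by Prdx5, which is shared with peroxisomes and cytosol. Prdx3 (NCBI Gene 11757, chr19:60864066-60874538) had 63.9, 68.1 and 72.4 CPM in knockout livers, against 80.4, 64.6 and 76.7 CPM in control livers. Its log2 fold change was -0.12 ± 0.13 (SE, n = 3 each; adjusted p = 0.663 in edgeR), and it ran from -0.21 without control replicate 2 to -0.051 without control replicate 1. The groups overlapped. Prdx5 (NCBI Gene 54683, chr19:6906697-6910106) had 158, 196 and 176 CPM in knockout livers, against 219, 157 and 123 CPM in control livers. Knockout libraries lay inside the range of the control libraries, which differed among themselves more than the knockout libraries did. The log2 fold change was 0.088 ± 0.21 (SE, n = 3 each; adjusted p = 0.841 in edgeR), and the estimate was 0.34 without control replicate 1 and -0.085 without control replicate 3. Prdx5 overlaps Trmt112, a methyltransferase partner gene on the opposite strand, by 409 bases in GENCODE M21. Whether reads were counted by strand is not given in the sources used here, so reads in that stretch cannot be told apart. Trmt112 had 36.3, 35.3 and 34.4 CPM in knockout livers, against 44.1, 44.8 and 37.3 CPM in control livers (adjusted p = 0.314 in edgeR). Its CPM did not overlap between groups, which held for 25.2% of all tested genes. Its TPM overlapped, at 53.2 to 61.3 in knockout and 58.5 to 74.4 in control livers.

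Txn2, the thioredoxin that passes electrons to Prdx3 and Prdx5 (NCBI Gene 56551, chr15:77915051-77928994), had 149, 182 and 167 CPM in knockout livers, against 179, 152 and 156 CPM in control livers. Its log2 fold change of 0.028 ± 0.14 (SE, n = 3 each) was close to 0, with an adjusted p of 0.93 in edgeR. The reductase that recharges thioredoxin 2, Txnrd2, belonged to a list of 18 partner enzymes, which also holds glutathione, sulphide and peroxisomal enzymes. Of these 18, 0 passed in edgeR, against 1.49% of all tested genes. DESeq2 called 3, against 5.26% of the genes it tested. An unadjusted p under 0.05 was found for 4, against 18.5% of all tested genes. Without control replicate 3 edgeR called 1 of these 18. The 18 summed to 6105 to 6715 CPM in knockout livers and 5626 to 5700 CPM in control livers, with 8 fold changes positive and 10 negative. Such a sum weighs abundant genes most. Gpx1 alone had 1347 ± 93.7 CPM in knockout and 970 ± 76.4 CPM in control livers (SD, n = 3 each). The 3 of the 18 with the smallest p were Sirt3, Ethe1 and Gpx1.

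Sirt3 encodes the mitochondrial deacetylase that acts on SOD2 and IDH2. It had 81.3, 82.8 and 81.6 CPM in knockout livers, against 57.5, 62.5 and 62.6 CPM in control livers (log2 fold change 0.43 ± 0.12, SE, n = 3 each; adjusted p = 0.104 in edgeR and 0.0243 in DESeq2). Every knockout library was above every control library. Ethe1, the mitochondrial persulphide dioxygenase, had 21.9, 24.4 and 20.8 CPM in knockout livers, against 54.5, 38.0 and 26.7 CPM in control livers (-0.83 ± 0.23; adjusted p = 0.106 in edgeR and 0.0224 in DESeq2). Gpx1, the selenium-dependent glutathione peroxidase of cytosol and mitochondria, had 1332, 1447 and 1261 CPM in knockout livers, against 882, 1009 and 1020 CPM in control livers (0.47 ± 0.14; adjusted p = 0.128 in edgeR and 0.0147 in DESeq2). None of the 3 passed in edgeR, although their groups did not overlap, which held for 25.2% of all tested genes.

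Glrx2 and Glrx5 are the glutaredoxins of mitochondria. Glrx2 (NCBI Gene 69367, chr1:143739224-143749678), which removes glutathione from protein thiols, had 188, 193 and 191 counts in knockout libraries, against 200, 204 and 207 counts in control libraries. The CPM were 10.1, 11.02 and 10.8 in knockout livers, against 13.4, 10.5 and 10.7 in control livers, so scaling to library size made the groups overlap. The log2 fold change was -0.11 ± 0.15 (SE, n = 3 each; adjusted p = 0.708 in edgeR). The deposited FPKM of Glrx2 were far more uneven than its counts, with 11.04, 15.2 and 11.5 FPKM in knockout livers, against 19.6, 14.9 and 10.9 FPKM in control livers. Count and FPKM together imply the effective transcript length that the authors' estimate used. For Glrx2 this was 922, 706 and 899 bases in knockout libraries, against 656, 761 and 1014 bases in control libraries. The table lists 8 transcripts for Glrx2, and in such estimates the effective length of a gene moves with how its reads are divided among its transcripts. The lengths varied from library to library within both groups. For Nnt, by contrast, the implied length stayed between 3387 and 3397 bases in all 6 libraries.

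**Figure D3:**
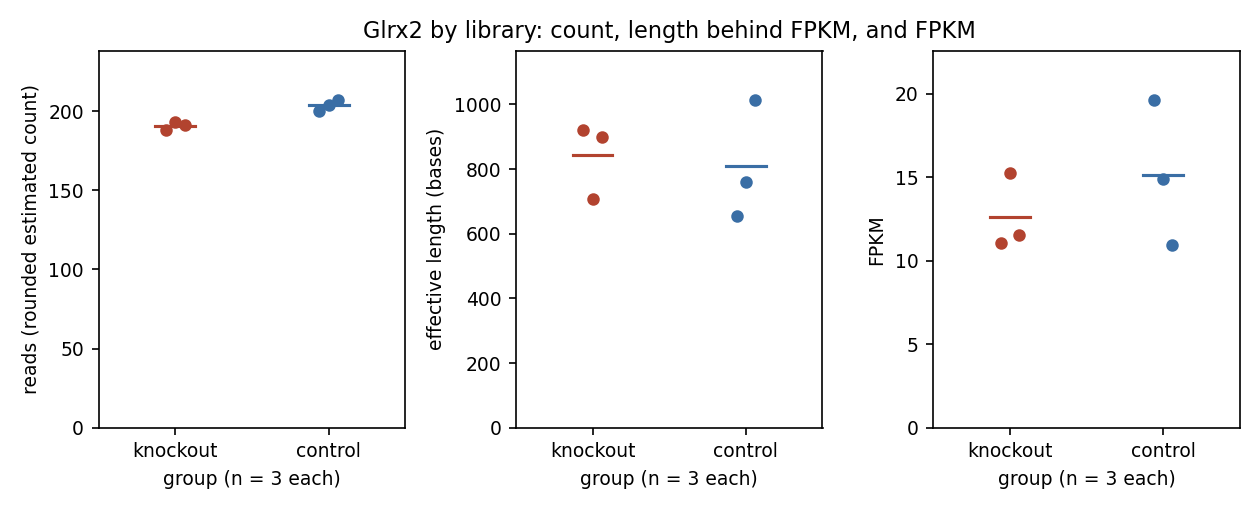
Glrx2 in each library (knockout left, control right; bars are group means) as rounded estimated count, as the effective transcript length implied by count and FPKM, and as FPKM. Counts lie between 188 and 207 in all libraries, whereas FPKM range from 10.9 to 19.6.

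Glrx5 (NCBI Gene 73046, chr12:105032618-105040911) hands on iron-sulphur clusters and so links thiol chemistry to cofactor assembly. It had 62.7, 72.4 and 63.2 CPM in knockout livers, against 50.2, 54.9 and 62.6 CPM in control livers. All knockout libraries were above all control libraries, the closest of them at 62.7 CPM in a knockout and 62.6 CPM in a control library. On the TPM scale the groups overlapped, with 102 to 118 TPM in knockout livers and 69.5 to 114 TPM in control livers. The log2 fold change was 0.24 ± 0.13 (SE, n = 3 each), with a 95% interval from -0.061 to 0.54 (adjusted p = 0.371 in edgeR). Nnt and Glrx5 were the 2 of the 10 genes whose CPM did not overlap between groups, where this held for 25.2% of all tested genes. Of 17 genes of iron-sulphur cluster assembly tested, 0 passed in edgeR, against 1.49% of all tested genes. In DESeq2 0 passed, against 5.26% of the genes it tested. Without control replicate 3 edgeR called 1 of the 17. An unadjusted p under 0.05 was found for 3, against 18.5% of all tested genes. These 3 differed in direction: the ferredoxin Fdx2 had 12.0 ± 0.372 CPM in knockout and 17.2 ± 3.0 CPM in control livers, the cysteine desulphurase Nfs1 45.4 ± 0.762 and 33.0 ± 7.45 CPM, and Nubpl, an assembly factor of respiratory complex I, 6.24 ± 1.12 and 4.01 ± 0.973 CPM (SD, n = 3 each). Their adjusted p-values in edgeR were 0.128, 0.199 and 0.178. Over the 17 genes the median was -0.086 on the log2 scale, with 7 fold changes positive and 10 negative. They summed to 870 to 905 CPM in knockout livers and 820 to 836 CPM in control livers.

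Oxidised methionine is repaired by Msra, which reduces the S form of methionine sulphoxide in mitochondria and cytosol, and by Msrb2, which reduces the R form in mitochondria. Msra (NCBI Gene 110265, chr14:64122621-64455903) had 148, 158 and 177 CPM in knockout livers, against 176, 170 and 166 CPM in control livers. Its log2 fold change was -0.087 ± 0.13 (SE, n = 3 each; adjusted p = 0.746 in edgeR). GENCODE M21 places an antisense gene, 9630015K15Rik, over 4981 bases of Msra. Msrb2 (NCBI Gene 76467, chr2:19371436-19394976) had 5.96, 7.43 and 8.41 CPM in knockout livers, against 9.19, 6.87 and 6.58 CPM in control livers. It rested on 111 to 148 counts in knockout libraries and 127 to 137 counts in control libraries, the fewest of the 10 genes, and its log2 fold change of -0.050 ± 0.19 (SE, n = 3 each; adjusted p = 0.907 in edgeR) had a 95% interval from -0.49 to 0.39. Both repair genes had overlapping groups. Msra lay far above Msrb2 in transcript level, at 188 against 9.68 TPM over all 6 libraries.

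Matrix NADPH is supplied by Idh2, the NADP-dependent isocitrate dehydrogenase, and by Nnt, the proton-driven transhydrogenase of the inner membrane. Idh2 (NCBI Gene 269951, chr7:80094845-80141503) had 98.3, 104 and 109 CPM in knockout livers, against 103, 116 and 113 CPM in control livers. The groups overlapped, and the log2 fold change was -0.095 ± 0.13 (SE, n = 3 each; adjusted p = 0.71 in edgeR).

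Nnt (NCBI Gene 18115, chr13:119335527-119409427) had 86.6, 106 and 70.8 CPM in knockout livers, against 35.1, 60.7 and 41.8 CPM in control livers. The lowest knockout library lay above the highest control library, on the TPM scale as well, at 25.1 against 23.3 TPM. The means were 87.8 ± 17.7 CPM in knockout and 45.9 ± 13.3 CPM in control livers (SD, n = 3 each), a ratio of 1.91 with a 95% interval from 1.35 to 2.70. On the log2 scale the difference was 0.94 ± 0.22 (SE), and it had an unadjusted p of 0.00207 and an adjusted p of 0.0736 in edgeR, so Nnt missed the threshold of 0.05. It ranked 342nd by p among the 12173 tested genes. At an adjusted p of 0.1 it would be called, as were 4.21% of all tested genes. In DESeq2 the adjusted p was 0.00273, and the authors' deposited table gives Nnt a log2 fold change of 0.94 and a q value of 0.00361.

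Leaving out single libraries moved the log2 fold change of Nnt between 0.78 and 1.19 and its adjusted p in edgeR between 0.0509 and 0.264, and none of these fits called it. With each library's trend on transcript length removed, the log2 fold change was 0.90 and the adjusted p 0.0643. Over all 17 other fits at the 0.05 threshold the adjusted p ran from 0.00273 to 0.264, and 2 fits, DESeq2 and edgeR without a filter on low counts, called Nnt. In simulated data for this comparison with 12079 genes, 65.7% of the genes changed by 1 on the log2 scale, a size close to that of Nnt, were recovered. Those genes were drawn at random from all levels, and the simulated libraries had no trend on transcript length. The share therefore does not give how often a gene with the level and scatter of Nnt would be called.

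**Figure D4:**
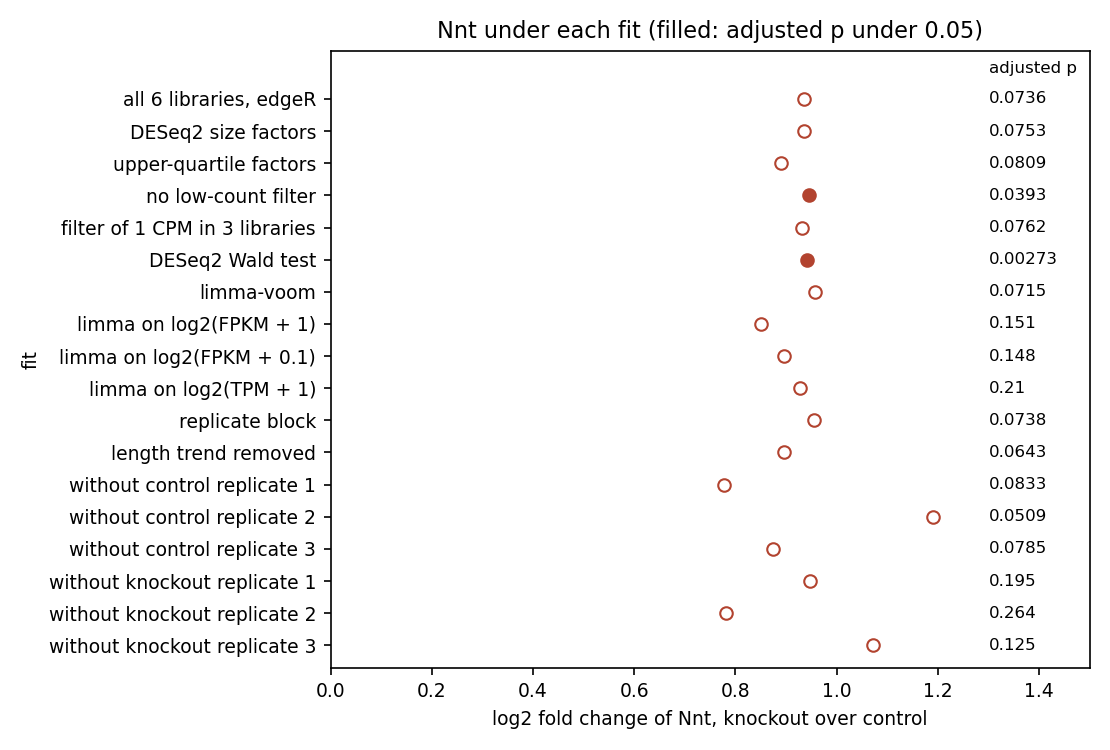
Log2 fold change of Nnt, knockout over control, in the fit on all 6 libraries and in each alternative fit, with the adjusted p at the right and filled points where it was under 0.05. Every estimate lies between 0.78 and 1.19, and 2 of the 17 alternatives pass.

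The C57BL/6J strain, whose genome the GRCm38 assembly represents, is known to carry an Nnt allele that lacks several exons. The strain of the livers is not given in the labels, and counts per gene do not show exon use, which was not analysed here. GENCODE M21 holds 2 records for Nnt. The deposited table gives Nnt, Msra and Idh2 on the plus strand, whereas GENCODE M21 has all 3 on the minus strand; over all genes found in both, 88.4% had the same strand. GENCODE M21 ends Idh2 at 80115392, short of the deposited end. It also places another gene, Gm45203, over 1831 bases of Idh2 on the same strand.

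The genes around Nnt were read after its values were known. Of 12 genes of the table within 1000 kb of Nnt, 7 were tested. With all 6 libraries 0 passed in edgeR, against 1.49% of all tested genes. An unadjusted p under 0.05 was found for 2, Tmem267 and Hmgcs1, against 18.5% of all tested genes. DESeq2 called both, against 5.26% of the genes it tested. Both were also called by edgeR without the filter on low counts, with the length trend removed and without control replicate 3. Over the 17 alternatives Tmem267 was called in 5 (adjusted p from 0.000971 to 0.22) and Hmgcs1 in 6 (0.00204 to 0.221). Tmem267, a transmembrane protein gene 78.7 kb from Nnt, had 18.8, 21.0 and 9.77 CPM in knockout livers, against 7.11, 5.94 and 7.83 CPM in control livers (log2 fold change 1.25 ± 0.27, SE, n = 3 each; adjusted p = 0.0588 in edgeR and 0.000971 in DESeq2). Hmgcs1, a cholesterol synthesis gene 281 kb away, differed the other way, with 41.2, 37.8 and 34.9 CPM in knockout livers, against 69.0, 51.3 and 69.9 CPM in control livers (-0.74 ± 0.15; adjusted p = 0.052 in edgeR and 0.00204 in DESeq2). Paip1, the closest tested gene at 18.9 kb, had a log2 fold change of 0.19 ± 0.12 (adjusted p = 0.419 in edgeR). The CPM of the groups overlapped for Paip1 and for each of the remaining tested neighbours.

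**Figure D5:**
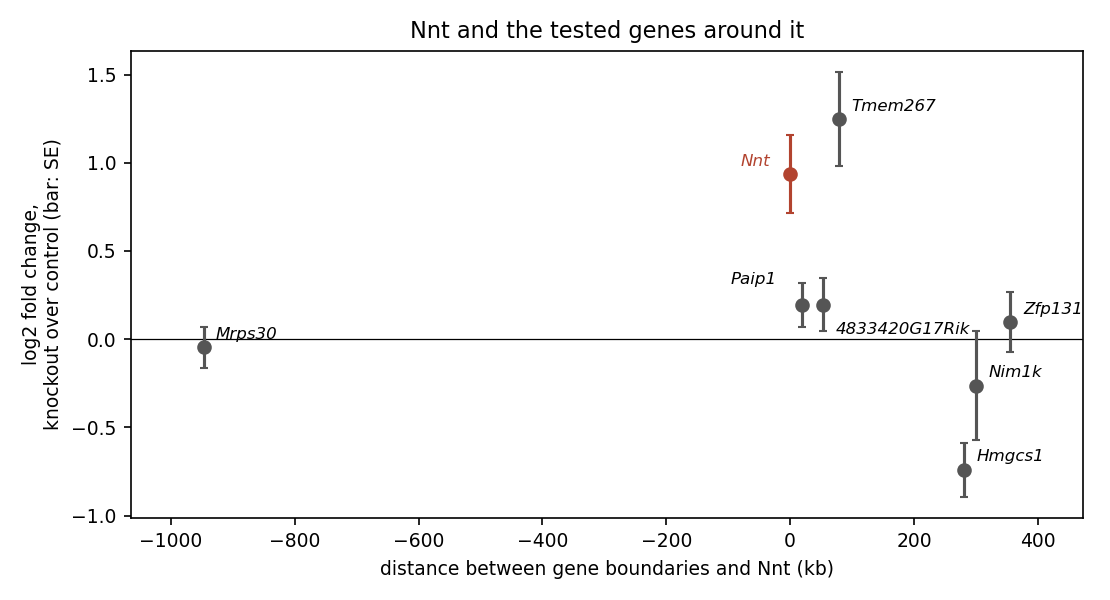
Log2 fold change, knockout over control, of Nnt (red) and of the 7 tested genes within 1000 kb of it (grey), against the distance in kb between their boundaries; bars are standard errors. Nnt (0.94) and Tmem267 (1.25) lie above the others and Hmgcs1 (-0.74) lies below.

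Other genes linked to matrix NADPH, not all of which make it themselves, formed a list of 8 genes with 7 tested. Folate enzymes and the NAD kinase Nadk2 are among them. Of the 7 tested, 0 passed in edgeR and 0 in DESeq2, against 1.49% and 5.26% of the genes each tested. An unadjusted p under 0.05 was found for 1, Mthfd1l, against 18.5% of all tested genes. Mthfd1l, a folate enzyme, had 2.0 ± 1.06 CPM in knockout and 0.941 ± 0.176 CPM in control livers (SD, n = 3 each, adjusted p = 0.194 in edgeR). Its counts were low, at 60, 24 and 25 in knockout libraries, against 12, 17 and 22 in control libraries, with knockout replicate 1 apart from the rest. Nadk2 had 98.0 ± 2.24 CPM in knockout and 76.4 ± 15.7 CPM in control livers (adjusted p = 0.281 in edgeR). Mthfd2l, another folate enzyme, had 0.895 ± 0.113 and 1.24 ± 0.103 CPM (adjusted p = 0.408 in edgeR).

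Among 15 known regulators of mitochondrial and antioxidant genes, 1 rose and none fell in edgeR. Of all tested genes 0.772% were called higher and 0.715% lower. The fold changes of the 15 were positive in 12 and negative in 3. The gene that rose was Ppargc1a, the coactivator that drives mitochondrial biogenesis and the fasting programme of the liver. It had 9.83, 10.7 and 11.7 CPM in knockout livers, against 4.36, 4.34 and 5.49 CPM in control livers, a log2 fold change of 1.18 ± 0.16 (SE, n = 3 each; adjusted p = 0.0131 in edgeR). In edgeR it was no longer called when control replicate 2 (adjusted p = 0.0509), knockout replicate 2 (0.0623) or knockout replicate 3 (0.0582) was left out. Limma on log2(FPKM + 1), log2(FPKM + 0.1) and log2(TPM + 1) did not call it either (adjusted p = 0.0502, 0.0534 and 0.0794), and over all 17 alternatives its adjusted p ran from 9.64e-06 to 0.0794. Ppargc1a rested on 183, 188 and 206 counts in knockout libraries, against 65, 84 and 106 counts in control libraries. A link between Ppargc1a and Nnt was not tested. Of 20 genes of general mitochondrial content, such as the respiratory and import subunits, 0 passed in edgeR and 0 in DESeq2, 1 had an unadjusted p under 0.05 (Clpp, a matrix protease subunit, with 48.3 ± 4.04 CPM in knockout and 66.7 ± 17.3 CPM in control livers), and their median log2 fold change was 0.085. Without control replicate 3 edgeR called 1 of the 20. With all 6 libraries edgeR called 1.49% of all tested genes, and 18.5% had an unadjusted p under 0.05. DESeq2 called 5.26% of the genes it tested. The CPM of Clpp overlapped between groups. The 20 genes summed to 3864 to 4167 CPM in knockout livers and 3472 to 3694 CPM in control livers, with 13 fold changes positive and 7 negative. Such a sum weighs abundant genes most. Atp5b alone had 1196 ± 41.9 CPM in knockout and 979 ± 53.1 CPM in control livers (SD, n = 3 each, adjusted p = 0.292 in edgeR).

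The 10 genes did not vary as 1 block over the 6 libraries. Across the log2 CPM of the 6 libraries, which share their library scaling, Sod2 went most closely with Prdx5 (Pearson r = 0.93) and with Txn2 (r = 0.92). These 3 were all high in control replicate 1 and in knockout replicate 2. Nnt had an r of 0.13 with Sod2. Its highest r among the members was 0.78, with Glrx5, the other member whose CPM did not overlap between groups, and its r of -0.78 with Prdx3 was the lowest of all pairs. Over all tested genes, the 3 whose log2 CPM followed Nnt most closely over the 6 libraries were Lrrc42 (r = 0.99), Tnik (r = 0.99) and Fzd6 (r = 0.99). Lrrc42 had 14.4, 15.7 and 13.9 CPM in knockout livers, against 10.5, 12.7 and 10.9 CPM in control livers. The other 2 had low counts. Tnik had 29, 31 and 23 counts in knockout libraries, against 13, 26 and 20 in control libraries, and its CPM overlapped between groups. Fzd6 had 59, 62 and 47 counts in knockout libraries, against 28, 46 and 36 in control libraries. The r values are descriptions over 6 libraries, with the highest values picked from 12173 genes.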

How the data were processed

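Libraries of poly(A)-enriched liver RNA were compared between 3 knockout and 3 control samples. Per the submitters' processing notes, HISAT2, Bowtie2 and RSEM 1.3.1 were used with GRCm38; the sources used here do not give their order or the strand setting. Per the file headers, the authors deposited estimated counts, FPKM and TPM per gene and library, with their means per group. The authors' deposited DESeq2 comparison gives a log2 fold change, p-value and q-value per gene, signed as knockout over control, as the negative value of Selenoo shows. Columns were matched to samples by group and number in their names, which call the controls wild type.

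Estimated counts were rounded to whole numbers; 4.55% to 4.98% per library differed from one by over 0.01. Genes were filtered with filterByExpr, scaled with TMM factors and tested in edgeR 4.0.16 by quasi-likelihood (R 4.3.3). Genotype was the single term, and p-values were adjusted by Benjamini-Hochberg over all tested genes at 0.05. Standard errors and 95% intervals were derived from the F statistic. CPM are scaled by TMM factors. Tested on simulated counts with 12079 genes, the fit found 65.7% of the genes changed by 1 on the log2 scale and 98.0% of those changed by 2; 5.85% of its calls were false. All pairs of libraries differed by more than counting noise, the closest with a chi-square of 18.9 per degree of freedom. Reads amplified by PCR lack molecular identifiers, so floors reflect counting error alone.

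The alternatives were DESeq2 1.42.0, limma 3.58.1 (voom, or a trend on log2 FPKM or TPM with pseudocounts), other scalings and filters, the replicate number as a block, a length correction and leaving out each library. The members and lists were chosen with earlier results of these data known. Named genes are Selenoo, all members, of each other list the genes past the threshold or else up to 3 with the smallest p, and the 3 genes most like the member with the smallest p; genes near Nnt and Trmt112 were added after values were seen.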

Additional observations from a re-analysis of the deposited data

How the results depend on the processing

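At 43 to 668, the number of all genes called changed most with single libraries: it was 361, 77 and 668 without control replicates 1, 2 and 3, and 59, 43 and 60 without knockout replicates 1, 2 and 3, against 181 with all 6. The count of all genes called was 330 without the low-count filter, 634 with DESeq2, 80, 105 and 75 with limma on log2(FPKM + 1), log2(FPKM + 0.1) and log2(TPM + 1), 87 with the replicate block, 284 with the length trend removed and 513 at an adjusted p of 0.1. Members called were 1 (Nnt) without the low-count filter, with DESeq2 and at an adjusted p of 0.1, and 0 in the other 15 alternatives. Nnt had a log2 fold change of 0.94 in both of these fits that called it. The median log2 fold change of the members stayed within the spread between replicates in all 17 alternatives, from -0.081 to 0.11.

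Estimates near 0 changed sign. That of Txn2 was -0.014 with upper-quartile factors and -0.022 on log2(FPKM + 1) and log2(FPKM + 0.1), and ran from -0.041 to 0.10 with single libraries left out. With the length trend removed, Glrx2 was at 0.0017, Msra at 0.013 and Msrb2 at 0.060. With single libraries left out, Glrx2 ran from -0.18 to 0.0036, Msrb2 from -0.17 to 0.11 and Prdx5 from -0.085 to 0.34. None of the 9 members other than Nnt was called in any alternative. The cause of these changes was not tested.

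Same-numbered libraries deviated with r = -0.16, -0.079 and -0.076 across genes, and no library correlated best with its own number. Deviations were taken from each group's own mean of 3 libraries, which ties these r values to one another. They therefore cannot decide whether the samples were paired. Under the replicate block Nnt had an adjusted p of 0.0738 in edgeR, and the call of Tat was lost (0.0748). Changes smaller than 1 on the log2 scale were not simulated, so the share of them that 3 libraries a group would recover was not tested.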
